A study of Mus musculus with 33 samples.

Results

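Liver tumours of mice lacking both Mst1 and Mst2 were compared with the liver tissue around such tumours. The arrays were chosen by their labels: 4 hepatocellular carcinomas and 3 surrounding livers, both of the Mst1/2 -/- genotype, which together make 7 of the 33 arrays of the series. The other arrays were Sav1 -/- tumours (n = 11), Sav1 -/- surrounding livers (n = 7) and normal livers of Mst1/2 floxed (n = 3), Sav1 floxed (n = 3) and wild-type mice (n = 2). Each array was an Illumina MouseWG-6 v2.0 bead array hybridised with biotin-labelled cRNA from total liver RNA. Both groups compared carry the same deletion, so the comparison is of tumour with non-tumour tissue and not of deleted with intact liver. The labels used here do not give the age of the mice, the Cre driver behind the deletion or the animal each sample came from. The p-values therefore measure a spread between samples, part of which may be technical. That spread is pooled within the groups of all 33 arrays and is not that of these 7 alone.

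Mst1 and Mst2, encoded by Stk4 and Stk3, are the kinases at the head of the Hippo pathway. With the scaffold Sav1 they activate the Lats kinases, which keep the coactivators YAP and TAZ out of the nucleus. In liver the pathway limits organ size, and mice without it develop enlarged livers and hepatocellular carcinoma. Hepatocytes are specialised by their place in the lobule and by sex: cells around the central vein respond to Wnt signals, and many secreted proteins and metabolic enzymes are made mainly in males under pulses of growth hormone. Major urinary proteins (Mups), lipocalins that carry pheromones into urine, are among the most abundant of these male-biased liver products.

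Median signals of the 7 arrays ran from 89.1 to 107 units, and 47.8% to 52.8% of probes exceeded each array's estimated background. Levels below are log2 signals after background correction and quantile normalization, with a floor of 5.65, and differences are tumour minus surrounding liver. Correlations over 14352 genes were 0.988 to 0.994 among the surrounding livers, 0.954 to 0.985 among the tumours and 0.942 to 0.984 between the groups. The tumours were less like each other than the surrounding livers were. Ttr (transthyretin), a hepatocyte marker, was at 15.48, 15.46, 15.37 and 15.45 in tumours 1 to 4. In surrounding livers 1 to 3 it was at 15.15, 15.28 and 15.33. Alb (albumin) went the other way, at 9.03, 9.29, 9.04 and 8.59 in the tumours and 9.46, 9.95 and 9.65 in the surrounding livers. Of 5 hepatocyte markers, 3 were higher and 2 lower in the tumours by their means, and none passed limma's test. Stk4 was at 9.92, 9.54, 9.85 and 9.77 in the tumours and at 9.70, 9.95 and 9.74 in the surrounding livers, a difference of -0.03 ± 0.28 (limma, adjusted p = 0.997). Its probe read a similar level in the Mst1/2 floxed normal livers (9.55 to 9.79), so it gave no check of the deletion, and Stk3 had no probe under that name. Sav1, which is intact in this line, was at 9.09, 8.75, 9.47 and 9.36 in the tumours and at 8.82, 9.12 and 8.99 in the surrounding livers. All 7 arrays read the Y-linked gene Eif2s3y far above background, at 10.59 to 11.19 in tumours and 11.24 to 11.32 in surrounding livers.

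In the tumours 4 genes of the Mup cluster, a long noncoding RNA and 1 poorly characterised transcript fell, while a transporter gene, the gene for protein S and an epithelial sodium channel subunit rose. These were the 9 of 14352 genes that passed limma's test at an adjusted p of 0.05, or 0.0627% of the genes tested, with 3 higher (0.0209%) and 6 lower (0.0418%). At an unadjusted p of 0.05 or less there were 1127 genes, and 2366 genes (16.5%) had no overlap between the arrays of the groups. The number of calls rested on single libraries: it was 2 without tumour 1, 2 without tumour 2, 47 without tumour 3, 88 without tumour 4, 1 without surrounding liver 1 and 1 without surrounding liver 3. It was 24 when the 7 arrays were normalized and fitted alone, and of the 9 genes only 2210407C18Rik and Hectd2os were among those 24, so that the 4 Mup genes, Slc23a3, Pros1 and Scnn1b lost their call. It was 85 when the Sav1 tumours were left out of the fit, an alternative chosen after seeing the data. All 9 genes kept their direction in the 18 alternatives run.

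The Mup genes lie in 1 cluster on chromosome 4 and are related copies. A probe for one may also bind transcripts of another, so the values of single members are uncertain. Such binding was not tested. Promoters of 4 of the 6 measured Mup genes were found in the RefSeq table, and the 2 that belong to genes that fell are printed here to show how alike the copies are. Mup6 is at chr4:60003231-60003530 on the plus strand and Mup21 at chr4:62150792-62151091 on the minus strand (GRCm38.p6, RefSeq), each from 250 bases before the annotated start to 50 bases after it. Capitals mark the TATA-like motif TATATAA.
Mup6: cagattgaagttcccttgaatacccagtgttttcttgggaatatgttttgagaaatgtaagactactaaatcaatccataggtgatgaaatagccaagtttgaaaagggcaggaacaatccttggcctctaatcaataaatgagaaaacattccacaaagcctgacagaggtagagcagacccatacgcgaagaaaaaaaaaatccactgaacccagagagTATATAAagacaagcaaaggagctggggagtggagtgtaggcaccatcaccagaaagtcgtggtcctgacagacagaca
Mup21: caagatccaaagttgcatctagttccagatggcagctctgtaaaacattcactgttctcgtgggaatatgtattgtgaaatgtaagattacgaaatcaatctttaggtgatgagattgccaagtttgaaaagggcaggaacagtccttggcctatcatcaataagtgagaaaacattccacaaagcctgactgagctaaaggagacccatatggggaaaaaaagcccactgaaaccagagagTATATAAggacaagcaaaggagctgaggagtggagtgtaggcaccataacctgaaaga
The 2 promoters matched at 235 of 275 aligned bases (85.5%), and pairs among Mup2, Mup3, Mup6 and Mup21 matched at 85.5% to 93.9%. TATATAA stood in all 4 of these promoters and in 3.24% of the 32851 RefSeq promoters of this length, searched on both strands. The letters TTCNNNGAA, a form bound by STAT factors, stood in none of the 4 windows and in 8.30% of all promoters, searched on both strands. At that share their absence from 4 short windows of related copies is the likely outcome. It does not bear on whether STAT factors act on these genes.

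Mup5, Mup6, Mup20 and Mup21 fell, with log2 differences of -5.33 to -4.98, and no tumour reached the level of any surrounding liver. Mup6 was at 8.44, 9.24, 12.32 and 10.71 in tumours 1 to 4 and at 15.38, 14.76 and 15.39 in surrounding livers 1 to 3, with means of 10.18 ± 1.71 and 15.18 ± 0.36 (SD, n = 4 and 3). That difference of -5.001 ± 0.83 (SE) is 32.0-fold lower signal in tumours, with an adjusted p of 0.00763 from limma. Tumours 1 and 2 were the lowest and tumour 3 the highest of the 4. Mup5 was at 7.59, 7.22, 11.59 and 10.26 in the tumours and at 14.81, 13.98 and 14.70 in the surrounding livers (difference -5.33 ± 0.93, 40.3-fold lower, limma adjusted p = 0.0117). Its other kept probe gave a smaller difference of -1.55. Mup20, also called darcin and known as a male pheromone, was at 7.44, 7.36, 11.08 and 9.78 in the tumours and at 14.40, 13.01 and 14.45 in the surrounding livers (difference -5.04 ± 0.94, 32.9-fold lower, limma adjusted p = 0.01995). Mup21 was at 7.25, 7.22, 10.35 and 9.42 in the tumours and at 14.65, 11.998 and 13.99 in the surrounding livers (difference -4.98 ± 1.01, 31.6-fold lower, limma adjusted p = 0.0488). The order of the 4 tumours was alike in these genes, with tumours 3 and 4 above tumours 1 and 2. Mup2 (difference -4.54, limma adjusted p = 0.0849) and Mup3 (difference -3.62, limma adjusted p = 0.154) did not pass the test. Their groups did not overlap either, which held for 16.5% of all genes tested. In tumour 3 Mup3 was at 13.87 against 15.06 to 15.33 in the surrounding livers, the closest approach of a Mup gene to them.

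**Figure D1:**
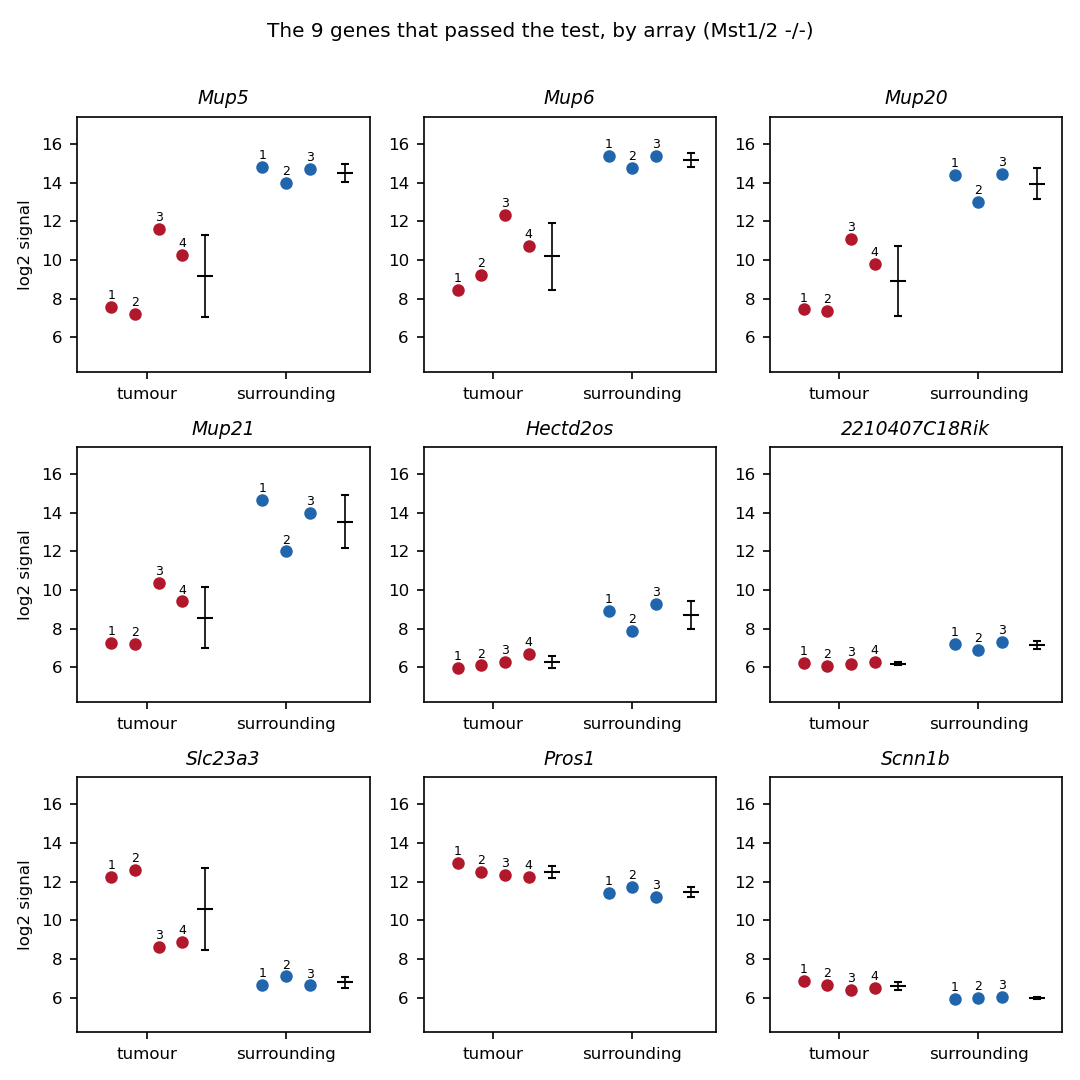
Log2 signal of each of the 9 genes that passed the test, in the 4 Mst1/2 -/- tumours (red, left) and the 3 surrounding livers (blue, right), with array numbers above the points and mean and SD as black bars. Tumours 1 and 2 are the lowest for Mup5, Mup6, Mup20 and Mup21 and the highest for Slc23a3, and the groups overlap in none of the 9.

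Hectd2os, a long noncoding RNA on the opposite strand at Hectd2, fell 5.42-fold. It was at 5.98, 6.10, 6.30 and 6.72 in the tumours and at 8.94, 7.90 and 9.30 in the surrounding livers (difference -2.44 ± 0.39, limma adjusted p = 0.00586). Only 1 of the 4 tumours was above background, and the 3 surrounding livers all were. The transcript 2210407C18Rik was at 6.24, 6.08, 6.16 and 6.29 in the tumours and at 7.23, 6.91 and 7.33 in the surrounding livers (difference -0.96 ± 0.11, limma adjusted p = 4.51e-05). It was not above background in any tumour, so its difference is given as at least 1.73-fold lower. It was the only one of the 9 genes to pass in all 18 alternatives. Its level in the surrounding livers was low in absolute terms, and in the Mst1/2 floxed normal livers its probe read 6.26 to 6.38.

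Slc23a3, a member of the ascorbate and nucleobase transporter family, rose 13.97-fold. It was at 12.25, 12.61, 8.64 and 8.89 in the tumours and at 6.64, 7.10 and 6.63 in the surrounding livers (difference 3.80 ± 0.70, limma adjusted p = 0.0192). Every tumour was above every surrounding liver, and tumours 1 and 2 stood far above tumours 3 and 4. Pros1 encodes protein S, an anticoagulant cofactor made by hepatocytes and a ligand of TAM receptors. It was at 12.95, 12.52, 12.34 and 12.26 in the tumours and at 11.42, 11.74 and 11.21 in the surrounding livers (difference 1.06 ± 0.21, 2.09-fold higher, limma adjusted p = 0.0488). Of the 9 genes it passed in the fewest alternatives, 9 of 18. Scnn1b, the beta subunit of the epithelial sodium channel, was at 6.87, 6.65, 6.38 and 6.52 in the tumours and at 5.95, 6.00 and 6.04 in the surrounding livers (difference 0.61 ± 0.11, limma adjusted p = 0.0117). It was above background in all 4 tumours and in no surrounding liver, which gives at least 1.18-fold higher signal. No array of any other group read it above background, so it entered the test only through the group where it was high and had to differ.

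Several genes with wider gaps between the groups did not pass, Igf2 first among them. Igf2, a fetal growth factor that adult mouse liver normally keeps silent, was at 15.03, 15.30, 15.61 and 15.53 in the tumours and at 7.46, 9.03 and 7.38 in the surrounding livers. The 4 tumours were near the top of the scale and close together, and surrounding liver 2 was the highest of its group. The difference of 7.41 ± 1.62 is 170-fold, and its adjusted p was 0.0658 in limma's fit over the 33 arrays. That fit takes its error from all groups, and Igf2 ranged from 7.03 to 15.63 in the Sav1 tumours, against SDs of 0.26 in the Mst1/2 tumours and 0.94 in their surrounding livers. Fitted on the 7 arrays alone, the difference was 7.26 with a limma adjusted p of 0.00112. Igf2 passed in 4 of the 18 alternatives.

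Gaps of at least 1 log2 unit between the nearest arrays of the groups were found for 9 genes higher in tumours and 26 lower, of which 6 had passed the test. The genes of this list were taken by that gap after their values were seen, and the values are a description. Beside Igf2 and Slc23a3, the higher ones were Tff3, a trefoil peptide of mucous epithelia; Psca, a surface protein of epithelial stem cells; Afp, the fetal albumin-like protein used as a liver tumour marker; Fgfbp1, a carrier of fibroblast growth factors; Akr1c18, a progesterone-inactivating reductase; the clock output factor Dbp; and the magnesium transporter Nipal1. Tff3 was at 14.17, 13.52, 9.62 and 9.28 in the tumours and at 6.92, 8.00 and 6.76 in the surrounding livers (difference 4.42, limma adjusted p = 0.198). Afp was at 11.53, 12.48, 8.54 and 9.14 in the tumours and at 6.50, 6.99 and 6.56 in the surrounding livers (difference 3.74, limma adjusted p = 0.0528). Both genes, like Slc23a3, stood highest in tumours 1 and 2. Psca was more even, at 14.29, 14.56, 13.24 and 12.91 in the tumours and at 8.85, 10.92 and 9.88 in the surrounding livers (difference 3.87, limma adjusted p = 0.0955). Fgfbp1 was even too, at 10.94, 11.88, 11.71 and 10.45 in the tumours and at 6.84, 8.74 and 7.32 in the surrounding livers (difference 3.61, limma adjusted p = 0.265). Dbp differed by 2.03 and lay between 11.86 and 12.57 in the tumours and between 9.96 and 10.43 in the surrounding livers (limma adjusted p = 0.564). The hour of sampling is not given in the labels used here.

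Of the 26 lower genes Cyp4a12b, a male-biased fatty acid hydroxylase, had the largest difference. It was at 6.87, 6.51, 7.08 and 7.04 in the tumours and at 13.08, 11.38 and 13.10 in the surrounding livers. Its difference of -5.64 was 50.01-fold, larger than that of any Mup gene, with a limma adjusted p of 0.143 in the 33-array fit and 0.00578 in the fit of the 7 arrays. All 4 tumours read Cyp4a12b within about a log2 unit of each other, unlike the Mup genes. These readings were above background but near the floor of 5.65, which limits what their small spread can show. The closely similar Cyp4a12a was at 8.54, 7.45, 10.99 and 10.02 in the tumours and at 14.43, 12.999 and 14.44 in the surrounding livers (difference -4.71). Carboxylesterase genes hydrolyse esters of drugs and lipids, and Ces3a, Ces3b, Ces1f and Ces1e differed by -4.67, -4.67, -3.98 and -2.05, though the 3 probes of Ces3b ranged from -4.67 to -2.01. Ces3a was at 6.75, 6.72, 9.63 and 8.81 in the tumours and at 12.93, 12.27 and 12.75 in the surrounding livers. Hamp2, a hepcidin-like gene, was at 7.03, 6.84, 10.86 and 12.45 in the tumours and at 13.85, 13.82 and 13.98 in the surrounding livers (difference -4.59). Other genes of this list were Sult2a8, a bile acid sulfotransferase (-4.35), Ugt2b1, a glucuronosyltransferase (-3.47), Cyp2f2, a periportal cytochrome (-3.10), Serpina5, the protein C inhibitor (-2.999), and Dio1, which activates thyroid hormone (-2.53). The other kept probe of Serpina5 gave -1.18 and that of Dio1 -1.91. In the Mst1/2 floxed normal livers Hamp2 (6.87 to 7.18), Serpina5 (6.27 to 7.03), Cyp4a12b (6.18 to 9.20) and Cyp4a12a (8.77 to 12.40) lay below all surrounding livers. Cyp2f2 (14.18 to 14.40) lay just below them. The carboxylesterase genes, Sult2a8, Ugt2b1 and Dio1 did not, with Ces3a at 11.99 to 13.30. No test was made against the normal livers. None of the genes named in this paragraph passed in the 33-array fit.

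**Figure D2:**
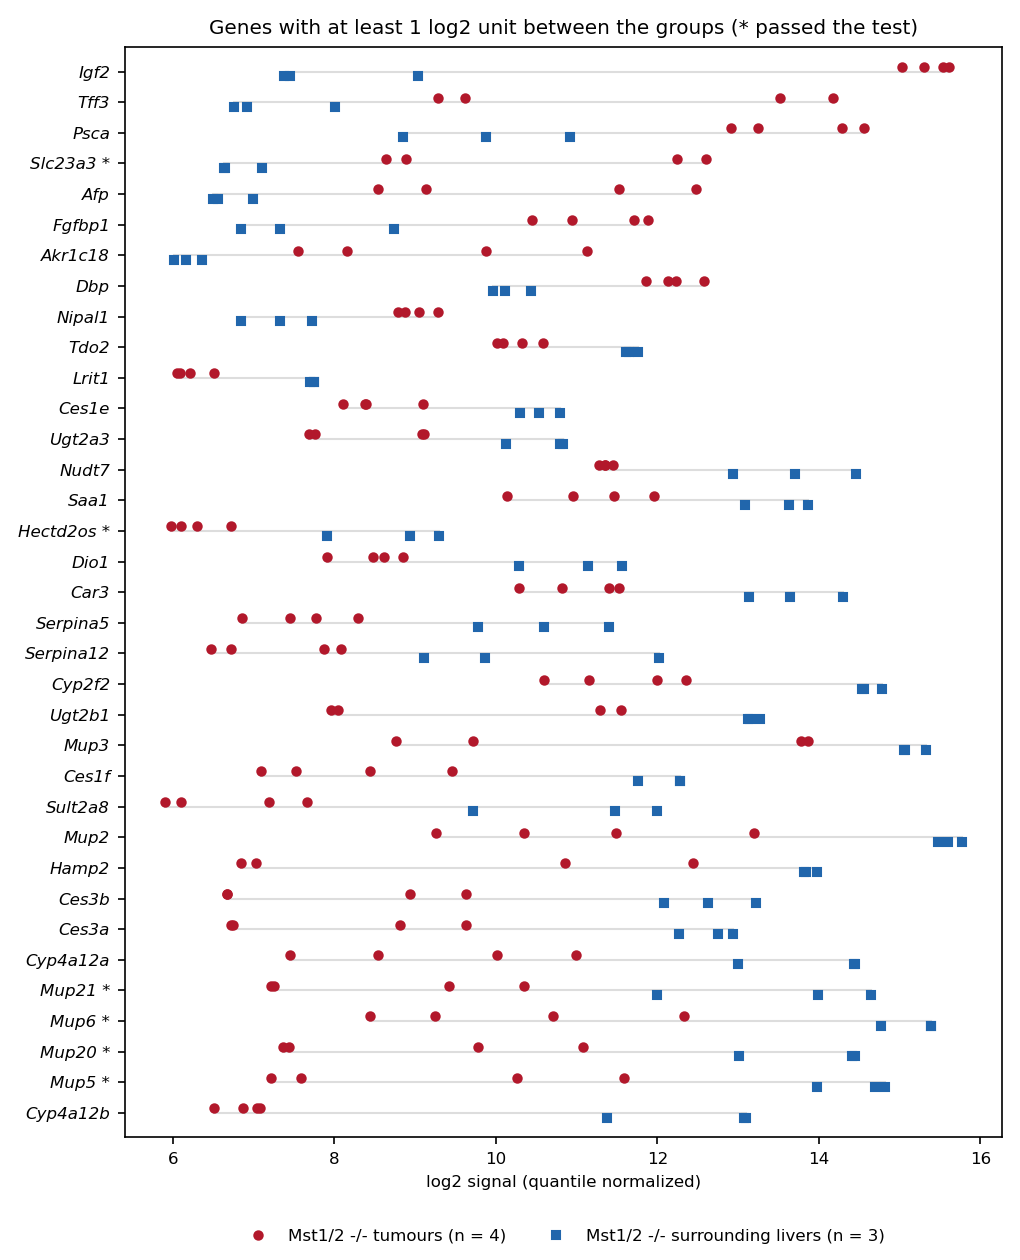
Log2 signal of the 35 genes with at least 1 log2 unit between the nearest arrays of the groups, with the 4 tumours as red circles and the 3 surrounding livers as blue squares, ordered by the difference from the highest (top) to the lowest. Stars mark the 6 genes that passed the test. The points of Igf2 and Cyp4a12b lie close together in the tumours, near the top and the bottom of the scale, while those of Tff3, Mup3 and Hamp2 are spread widely.

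Of 60 gene lists, 2 held a gene that passed: the male-biased liver genes, with 0 higher, 3 lower and 19 not passed of 22 tested, and the coagulation factors, with 1 higher (Pros1), 0 lower and 21 not passed of 22. Over all 14352 genes 0.0209% passed as higher and 0.0418% as lower. The male-biased list had a median difference of -1.89, against 0.0076 over all 14352 genes, and 20 of its 22 genes were lower in the tumours. Its 3 genes that fell are Mup5, Mup20 and Mup21, which are related copies and not independent. In the 3 Mst1/2 floxed normal livers Eif2s3y was not above background (6.05 to 6.16). Mup6 (15.18 to 15.44) and Mup20 (13.14 to 13.99) there overlapped the surrounding livers. Mup5 (12.84 to 13.92), Mup21 (10.69 to 11.37) and Cyp4a12b (6.18 to 9.20) were below all surrounding livers. Male bias of these probes was not tested. The 21 tested female-biased genes had a median of 0.06, with 13 higher and 8 lower. Among the other male-biased genes, Elovl3, a fatty acid elongase, was above background in no tumour (5.81 to 6.15) and in 2 of 3 surrounding livers (8.02, 6.21 and 7.52). Surrounding liver 2 was also the lowest of its group for all 4 Mup genes that fell and for Cyp4a12b. Acot3 and Cux2, which are female-biased in mouse liver, were at 7.88 to 8.37 and 7.19 to 7.37 in the tumours and at 6.94 to 7.50 and 6.33 to 6.99 in the surrounding livers, without passing the test (limma adjusted p = 0.857 and 0.916). The 3 kept probes of Cux2 gave differences of -0.05 to 0.70.

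Lists of hepatocyte metabolism lay below the median of all genes with no gene passing. All 23 tested genes of the urea cycle and amino acid catabolism were lower in the tumours by their means, with a median of -0.77. The list medians of tumours 1 to 4 against the mean of the surrounding livers were -0.93, -0.86, -0.71 and -0.36. Ass1, the urea cycle's argininosuccinate synthase, was at 12.95, 12.66, 12.90 and 13.44 in the tumours and at 14.37, 13.87 and 14.31 in the surrounding livers (difference -1.20, limma adjusted p = 0.376). The 30 tested cytochrome P450 and drug metabolism genes had a median of -0.69, which tumours 1 and 2 carried: the medians of tumours 1 to 4 were -0.99, -1.09, -0.25 and -0.14, with 12, 11, 1 and 1 genes at least 4-fold lower. The medians were -0.62 for 29 sulfotransferase, glucuronosyltransferase and carboxylesterase genes, -0.70 for 17 methionine and one-carbon genes and -0.38 for 27 oxidative phosphorylation genes. Plasma protein and apolipoprotein genes (32 tested, median -0.01) and glycolysis genes (19 tested, median 0.02) were near the median of all genes.

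The fetal liver and liver cancer list had a median of 0.68, with 18 of 21 tested genes higher and none passing. Its medians were 1.49, 1.69, 0.42 and 0.62 in tumours 1 to 4. Gpc3, an oncofetal proteoglycan, was at 13.29, 13.60, 13.17 and 13.74 in the tumours and at 11.35, 12.60 and 11.46 in the surrounding livers (difference 1.65 ± 0.63, limma adjusted p = 0.445). The 4 tumours read it alike, while Cldn6, a claudin of embryonic epithelia, was at 12.20, 14.17, 9.36 and 10.29 in the tumours and at 9.10, 9.93 and 9.15 in the surrounding livers. Of the insulin-like growth factor axis, Igf1, the adult hepatocyte's growth factor, was at 10.96, 10.19, 11.51 and 11.60 in the tumours and at 13.25, 12.43 and 12.97 in the surrounding livers (difference -1.82 ± 0.44, limma adjusted p = 0.118). Neither Igf1 nor Igf2 overlapped between the groups, with Igf1 on the low side and Igf2 on the high side in tumours. Such lack of overlap was found for 16.5% of all genes tested. The binding protein gene Igfbp1 was at 11.00, 10.23, 11.23 and 10.07 in the tumours and at 7.76, 9.13 and 8.35 in the surrounding livers (difference 2.22, limma adjusted p = 0.603). Grb10, an imprinted inhibitor of insulin and IGF receptor signalling, differed by 1.68 (limma adjusted p = 0.144), and its 2 probes gave 0.34 and 1.68.

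The 23 tested YAP and TAZ targets had a median of 0.21 with none passing. Ankrd1, a target gene encoding a cardiac ankyrin-repeat protein, was at 12.38, 12.08, 11.69 and 11.12 in the tumours and at 8.97, 10.35 and 9.79 in the surrounding livers (difference 2.11 ± 0.89, limma adjusted p = 0.519). Ccn1, another target gene that encodes a matricellular protein, was at 9.15, 9.32, 9.76 and 9.52 in the tumours and at 9.76, 9.80 and 9.74 in the surrounding livers. Ankrd1 was above the surrounding livers in all 4 tumours, while Ccn1 overlapped between the groups. These genes, like the others named outside the calls, were chosen after their values were seen. The 29 tested cell cycle genes had a median of 0.25 with none passing, and by tumour their medians were 0.07, 0.77, 0.12 and 0.12, so that tumour 2 stood apart.

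The 4 tumours were not alike. Counting genes outside the range of the surrounding livers and at least 4-fold from their mean, tumour 1 had 102 higher and 130 lower, tumour 2 had 110 and 149, tumour 3 had 49 and 29, and tumour 4 had 21 and 22. Tumours 1 and 2 shared 63 of the higher and 109 of the lower genes, while the other pairs of tumours shared 6 to 13 and 19 to 27. All 4 tumours shared 4 higher and 19 lower genes. No test was made between tumours, since each is a single array.

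Pericentral genes, which Wnt signals from the central vein switch on in neighbouring hepatocytes, differed most between tumours. Their list median was -1.12, -1.55, 1.78 and 0.01 in tumours 1 to 4, and the group's median of -0.15 hides that spread. Glul, glutamine synthetase, was at 7.28, 7.23, 11.82 and 7.70 in the tumours and at 8.37, 7.74 and 8.30 in the surrounding livers. Slc1a2, a glutamate transporter of the same cells, was at 6.06, 6.01, 12.28 and 7.41 in the tumours and at 7.10, 6.18 and 8.04 in the surrounding livers, and its kept probes gave differences of -0.10 to 0.83. Axin2, a direct target of Wnt signalling, was at 6.24, 6.12, 9.67 and 7.35 in the tumours and at 7.04, 6.89 and 6.96 in the surrounding livers. For these 3 genes tumour 3 alone stood above all surrounding livers by over 2 log2 units. In the Mst1/2 floxed normal livers Slc1a2 was at 12.13 to 12.60, a range that holds the value of tumour 3. Glul (10.25 to 10.51) and Axin2 (7.86 to 8.01) were there below tumour 3 and above all surrounding livers. The cytochromes Cyp2e1 and Cyp1a2 followed another pattern. Cyp2e1 was at 11.03, 9.39, 15.61 and 15.42 in the tumours and at 15.17, 14.75 and 15.52 in the surrounding livers. Cyp1a2 was at 6.99, 6.86, 12.90 and 12.72 in the tumours and at 12.66, 11.42 and 12.37 in the surrounding livers. Both were low in tumours 1 and 2 and near the surrounding livers in tumours 3 and 4, as was Adh1, alcohol dehydrogenase, at 9.75, 8.55, 14.59 and 14.51 in the tumours and 14.65 to 14.75 in the surrounding livers.

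**Figure D3:**
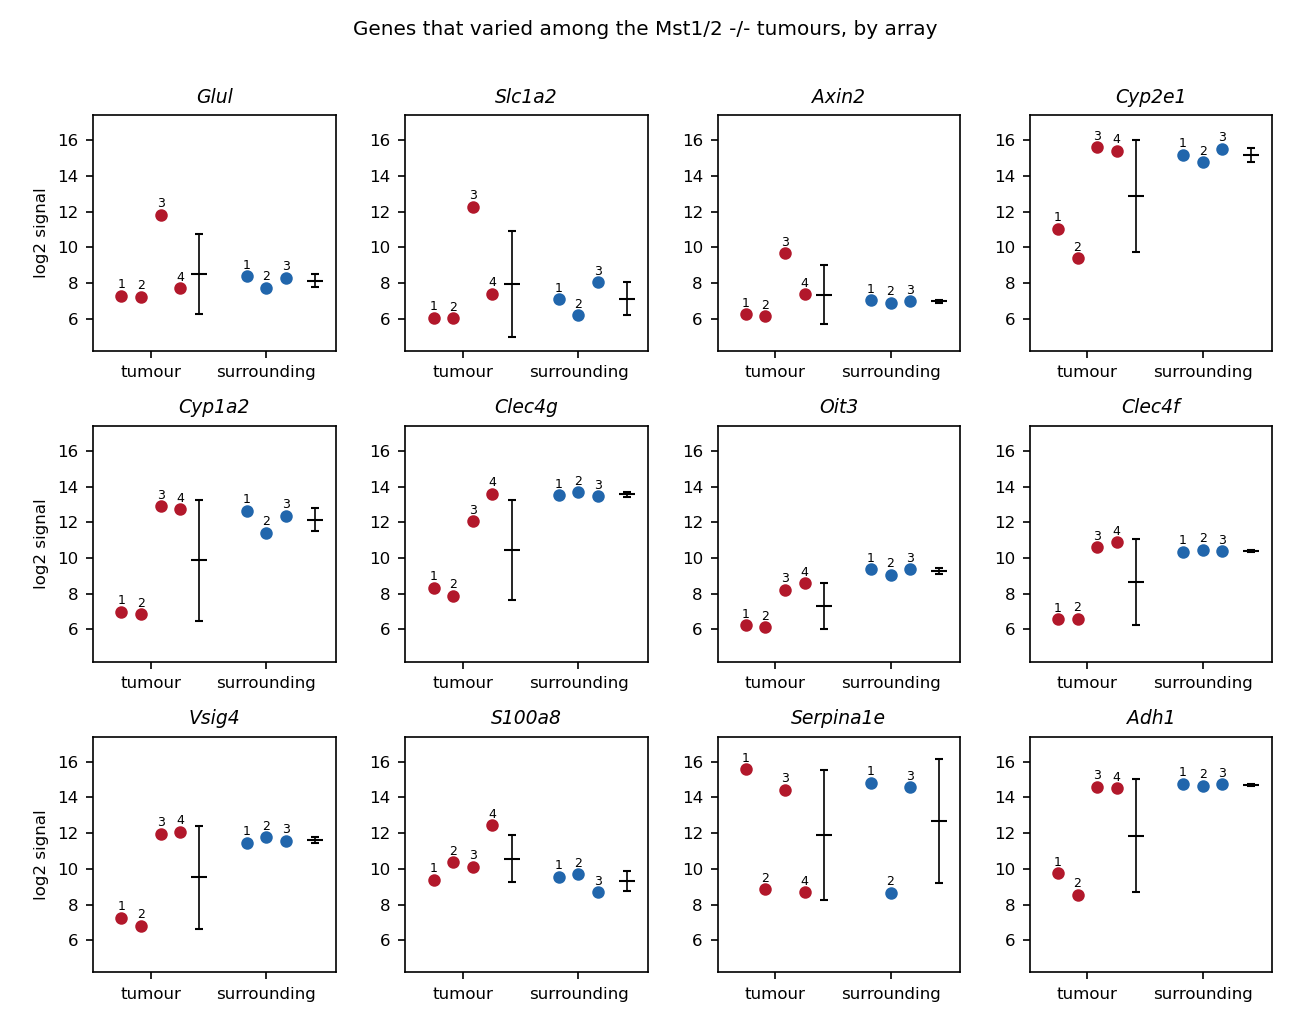
Log2 signal of 12 genes in the 4 Mst1/2 -/- tumours (red, left) and the 3 surrounding livers (blue, right), with array numbers above the points and mean and SD as black bars. Glul, Slc1a2 and Axin2 are highest in tumour 3, the other cytochrome, endothelial and Kupffer genes are lowest in tumours 1 and 2, and S100a8 is highest in tumour 4.

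Markers of sinusoidal endothelial and Kupffer cells were also low in tumours 1 and 2. In bulk tissue fewer cells of a type and less RNA per cell cannot be told apart. None of the 40 tested cell type markers passed. All 4 sinusoidal endothelial markers were lower in the tumours by their means, and their summed signal ran from 549 to 13986 in the tumours and from 13182 to 15150 in the surrounding livers. Clec4g alone made up 85.4% to 87.8% of that sum in the surrounding livers, and the other 3 markers summed to 349.8, 312.3, 1277 and 1653.5 in tumours 1 to 4 and to 1637 to 1919 in the surrounding livers. Clec4g, a lectin of these cells, was at 8.35, 7.89, 12.06 and 13.59 in the tumours and at 13.52, 13.70 and 13.46 in the surrounding livers (difference -3.09, limma adjusted p = 0.354). Of 2 kept Clec4g probes the other gave -0.24. Oit3, another gene of sinusoidal endothelium, was at 6.24, 6.12, 8.23 and 8.59 in the tumours and at 9.37, 9.06 and 9.36 in the surrounding livers, and it was below background in tumours 1 and 2. The summed signal of the 3 tested general endothelial markers was 695, 696, 1035 and 1379 in tumours 1 to 4. In the surrounding livers it was 803 to 928, above tumours 1 and 2 and below tumours 3 and 4. The 3 tested Kupffer cell markers summed to 295 to 6383 in the tumours and 4265 to 5030 in the surrounding livers. Clec4f, the Kupffer cell lectin, was at 6.58, 6.60, 10.61 and 10.89 in the tumours and at 10.36, 10.48 and 10.39 in the surrounding livers, and Vsig4, a complement receptor of these cells, at 7.27, 6.81, 11.97 and 12.09 in the tumours and 11.45 to 11.77 in the surrounding livers. Tumours 3 and 4 were above the surrounding livers for both, and the other kept probe of Clec4f gave a difference of -0.66, against -1.74 for the one used. The 2 tested recruited macrophage markers summed to 11702 to 16648 in the tumours and 8009 to 15982 in the surrounding livers.

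The 3 neutrophil markers summed to 1205 to 8465 in the tumours and 783 to 1352 in the surrounding livers, with the highest value in tumour 4. S100a8, a calcium-binding protein of neutrophils, was at 9.39, 10.36, 10.12 and 12.43 in the tumours and at 9.55, 9.69 and 8.69 in the surrounding livers. The 6 stellate cell and fibroblast markers summed to 6503 to 30793 in the tumours and 20701 to 30756 in the surrounding livers, with 5 of 6 lower in the tumours by their means. Among them Lrat, which stores vitamin A in stellate cells, was at 6.30, 6.23, 7.75 and 8.07 in the tumours and 7.83 to 8.21 in the surrounding livers. Col1a1, the collagen chain of fibroblasts, went the other way in tumours 1 and 2, at 8.53, 8.66, 7.68 and 7.90 in the tumours and 7.49 to 7.81 in the surrounding livers. The 5 hepatocyte markers summed to 116389 to 133373 in the tumours and 111195 to 120879 in the surrounding livers. The 3 tested T and NK cell markers, all higher in the tumours by their means, summed to 529 to 711 in the tumours and 345 to 375 in the surrounding livers, without overlap, and their lowest limma adjusted p was 0.755. Of all genes tested, 16.5% had no overlap between the groups. The 2 tested pancreatic acinar markers summed to 382 to 708 in the tumours and 462 to 600 in the surrounding livers. Adipoq, the one adipocyte marker tested, was above background on none of the 7 arrays. The part that cell makeup plays in the genes above was not tested.

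**Figure D4:**
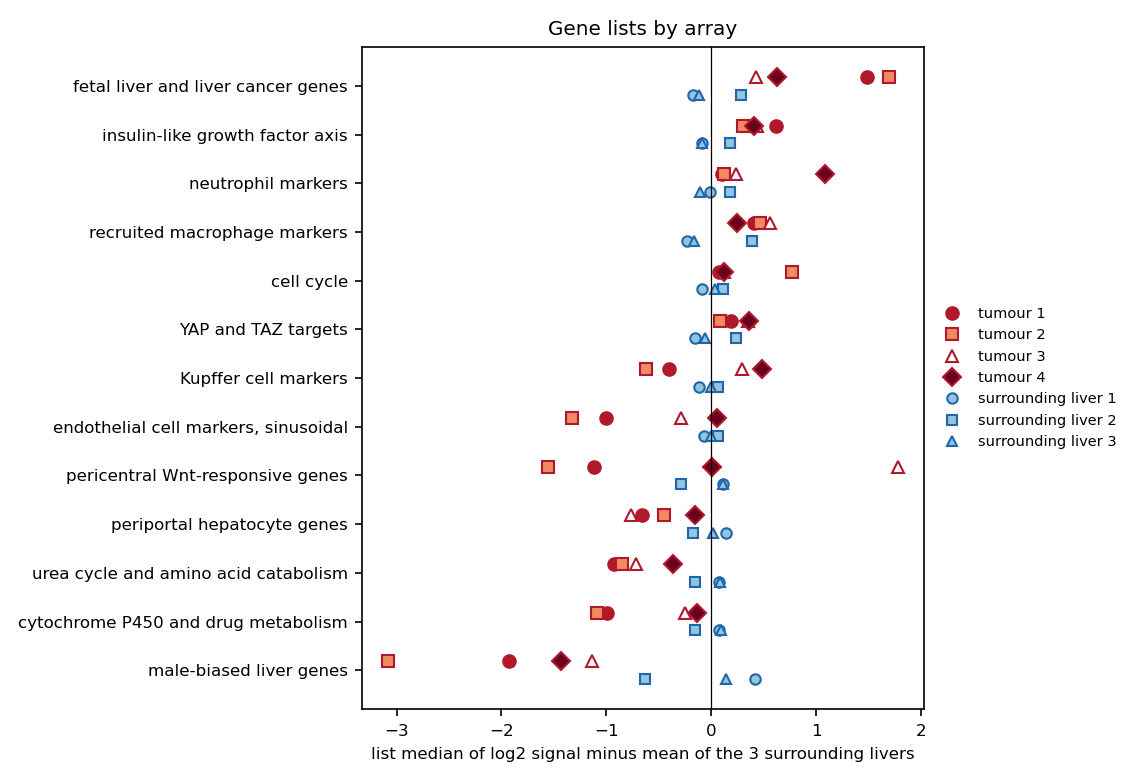
Median of each gene list's log2 signal minus the mean of the 3 surrounding livers, for tumours 1 to 4 (red shapes, upper row of each list) and surrounding livers 1 to 3 (blue shapes, lower row). The pericentral list spans -1.55 to 1.78 across the tumours, and the male-biased list spans -3.08 to -1.14.

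The genes of largest SD among the surrounding livers were Serpina1e, Cyp2a4, Tm7sf3 and Ctsc. Serpina1e, an alpha-1 antitrypsin copy, was at 15.59, 8.86, 14.43 and 8.69 in the tumours and at 14.82, 8.65 and 14.57 in the surrounding livers, so each group held both high and low arrays. Ctsc, the protease cathepsin C, was at 7.91, 10.81, 7.47 and 10.59 in the tumours and at 10.60, 10.78 and 7.55 in the surrounding livers. Tm7sf3, a membrane protein, was not above background in any tumour (5.80 to 6.14) and was at 9.91, 6.16 and 9.96 in the surrounding livers, of which 2 were above background (at least 4.97-fold lower in tumours, limma adjusted p = 0.712). Cyp2a4, a steroid hydroxylase, was at 8.14, 7.98, 11.11 and 10.50 in the tumours and 10.96, 7.19 and 11.61 in the surrounding livers.

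The Sav1 line, with 11 tumours and 7 surrounding livers and no shared samples, allowed a test of whether a difference between tumour and surrounding liver differed between the lines. In that line 975 genes were higher in tumours (6.79% of those tested) and 805 lower (5.61%). Of the 9 genes above, 8 had the same sign there, and Slc23a3 (difference 1.78 ± 0.44, limma adjusted p = 0.00765) and Hectd2os (difference -1.34 ± 0.25, limma adjusted p = 0.000483) passed. Mup6 differed by -1.38 ± 0.53 in the Sav1 line (limma adjusted p = 0.0839), and the difference between the lines of -3.62 did not pass (limma adjusted p = 0.296). Igf2 differed by 0.52 ± 1.02 in the Sav1 line, and its difference between the lines of 6.89 ± 1.91 did not pass either (limma adjusted p = 0.335).

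A test of the difference between the lines called 12 genes (0.0836%), of which 2210407C18Rik and Scnn1b had also passed within the Mst1/2 line. The test called 2 genes without surrounding liver 1, 5 without surrounding liver 2, 20 without tumour 3 and 140 with array weights. The Sav1 differences of 2210407C18Rik and Scnn1b were -0.05 and -0.10. Their differences between the lines were -0.92 (limma adjusted p = 0.00309) and 0.71 (limma adjusted p = 0.0103). Scnn1b was above background in the Mst1/2 tumours only, so it entered this test too through the group where it was high. Its call between the lines is therefore no support. Espn, an actin-bundling protein, had the largest term: it was lower in the Mst1/2 tumours by -1.78 ± 0.70 and higher in the Sav1 tumours by 2.89 ± 0.44 (difference between the lines -4.67, limma adjusted p = 0.0103). Its values were 7.21, 7.03, 11.18 and 9.94 in the Mst1/2 tumours and 10.78, 10.88 and 10.21 in the surrounding livers, so tumour 3 was above them and tumours 1 and 2 far below. Of 4 Espn probes the highest gave 0.03 in the Mst1/2 line. Amotl2, a YAP target that restrains YAP, differed by -0.15 in the Mst1/2 line and 0.85 in the Sav1 line (difference between the lines -1.005, limma adjusted p = 0.0228). Its level in Mst1/2 surrounding livers, 7.92 to 8.21, was above the range of the Sav1 surrounding livers, 7.03 to 7.32.

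The macrophage and myeloid genes Nlrp12, Cd163, Timd4 and Ms4a8a had the largest positive terms. Cd163, the macrophage haemoglobin scavenger receptor, differed by -1.45 in the Mst1/2 line and -4.37 in the Sav1 line (difference between the lines 2.91, limma adjusted p = 0.0156), and its other probe gave 0.01 in the Mst1/2 line. It was at 6.03, 6.32, 8.62 and 8.71 in the Mst1/2 tumours and at 9.03, 8.73 and 8.87 in their surrounding livers, and at 6.25 to 7.58 in the Sav1 tumours and 10.82 to 11.55 in the Sav1 surrounding livers. Timd4, a phosphatidylserine receptor of resident macrophages, was at 6.56 to 8.36 in the Mst1/2 tumours and 7.25 to 7.65 in their surrounding livers, and at 6.15 to 7.75 in the Sav1 tumours and 8.52 to 10.63 in the Sav1 surrounding livers. Nlrp12, a regulator of myeloid inflammation, was at 5.71 to 6.92 in the Mst1/2 tumours and 5.90 to 6.02 in their surrounding livers. It was above background in 1 Mst1/2 tumour and in no Mst1/2 surrounding liver, so a fall could not be read there. In the Sav1 line it was at 5.92 to 6.83 in tumours and 7.79 to 11.67 in surrounding livers. Normal livers read it at 10.41 to 10.64 (Mst1/2 floxed), 9.77 to 11.65 (Sav1 floxed) and 10.88 to 11.09 (wild type). For these 3 genes the surrounding livers of the lines did not overlap, and the tumours of the lines did. The Y-linked gene Eif2s3y was at 10.59 to 11.19 in the Mst1/2 tumours and 11.24 to 11.32 in their surrounding livers, and at 7.47 to 12.20 in the Sav1 tumours and 11.07 to 11.76 in the Sav1 surrounding livers. The part of sex in the difference between the lines was not tested.

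**Figure D5:**
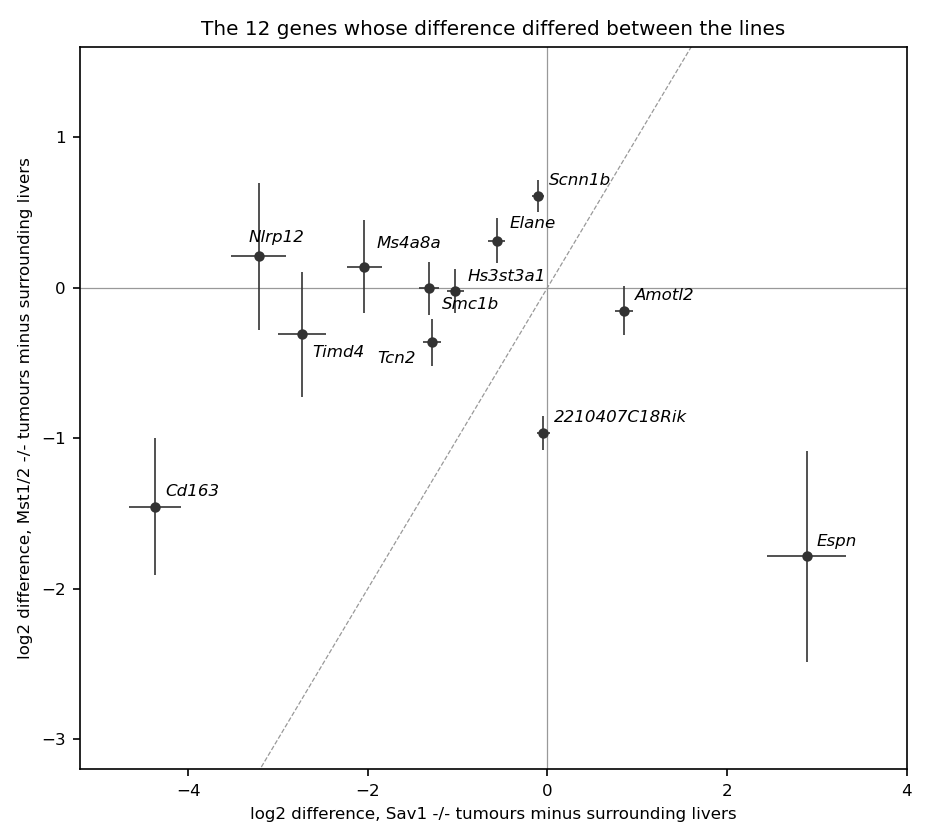
Log2 difference between tumours and surrounding livers in the Mst1/2 line (vertical axis) and the Sav1 line (horizontal axis) for the 12 genes whose difference differed between the lines, with SE bars from limma and a dashed line of equal difference. Espn lies at -1.78 in the Mst1/2 line and 2.89 in the Sav1 line, and Cd163 at -1.45 and -4.37.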

How the data were processed

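Total liver RNA was extracted with a mirVana kit, labelled with biotin and hybridised to 33 Illumina MouseWG-6 v2.0 arrays, 1 per sample, per the labels' protocols. The deposited intensity values are linear signals of 45281 probes, exported with BeadStudio per the submitters' processing notes, with no detection p-values and no normalization stated. The deposited log2 table matched log2 of the quantile-normalized signals to within 0.004995, from its values, with a column median of 6.57, and served as an alternative.

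Signals of all 33 arrays were corrected with normexp (offset 50), quantile-normalized and put on a log2 scale. Background was the 99th percentile of signals below each array's mode, mirrored about it. Of the probes, 34885 had 1 gene symbol, 18 several and 10378 none. Probes above background on at least 3 arrays (23979) gave 14352 genes, each by its probe of highest mean; 6117 genes had more than 1 such probe. Group means were fitted over all arrays with limma 3.58.1 in R 4.3.3 (lmFit and eBayes), with Benjamini-Hochberg adjustment over all genes and a threshold of 0.05, and the difference between the lines as a contrast. Where a gene was above background on no array of one group, its fold is a bound from the dimmest signals above background. Precision is limited by how few arrays each group has. The scripts were tested on simulated data. Promoters were aligned with Biopython 1.88 in Python 3.11.15, and figures drawn with matplotlib 3.10.9.

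Named genes are the called genes, the largest differences between the lines, the genes of largest SD in each group, leading members of 60 gene lists, cell type markers and the targeted genes; any other gene was chosen after its values were seen. The groups, lists and genes were chosen with earlier results of these data known. Alternatives changed the background correction, scaling, probe filter, probe choice, variance model, arrays fitted and a replicate block, and left out each array in turn.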

Additional observations from a re-analysis of the deposited data

Results flagged for a closer look

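Glul in tumour 3, at 11.82, stood apart from the other 3 tumours by more than Dixon's 95% limit for a group of 4 arrays, with a ratio of gap to range of 0.899. Of 80 genes looked at in this way it was the only one, and chance marks about 1 group in 20. A single mark among 80 is no more than that rate gives. Some of the 80 genes were also named for their spread or after their values were seen.

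The difference between tumours and surrounding livers itself differed between the Mst1/2 and the Sav1 line for 12 genes in limma's test of that contrast. The contrast, Mst1/2 minus Sav1, was negative for Espn (-4.67), Amotl2 (-1.005) and 2210407C18Rik (-0.92). It was positive for Nlrp12 (3.43), Cd163 (2.91), Timd4 (2.42), Ms4a8a (2.18), Smc1b (1.31), a meiotic cohesin gene, Hs3st3a1 (1.002), a heparan sulfate sulfotransferase gene, Tcn2 (0.92), which encodes a vitamin B12 carrier, Elane (0.88), neutrophil elastase, and Scnn1b (0.71). Of these 12 genes, 2210407C18Rik and Scnn1b passed within the Mst1/2 line. Scnn1b entered both tests only through the Mst1/2 tumours, where it was high, so neither call is support.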

How the results depend on the processing

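The number of genes changed between tumours and surrounding livers, 9 (3 higher, 6 lower), depended on the processing. It was 24 (6 higher, 18 lower) with the 7 arrays normalized and fitted alone, 17 (8 higher) with the mean of a gene's probes, and 1181 (579 higher, 602 lower) with array weights. With probes above background on at least 3 of the 7 arrays, 5 genes were higher. Without the Sav1 tumours in the fit, an alternative chosen after seeing the data, it was 85 (40 higher, 45 lower). Leaving out 1 of the 7 arrays at a time gave 1 to 88 genes changed, 0 to 36 higher and 1 to 52 lower. The test between the lines called 12 genes, 140 with array weights and 2 to 20 with 1 of the 7 arrays left out. Without surrounding liver 1 it called 2, without surrounding liver 2 it called 5 and without tumour 3 it called 20. Single Sav1 arrays were not left out, so its dependence on them is not known. Of the 9 genes, 2 (2210407C18Rik and Hectd2os) passed in the 7-array fit. The cause of these shifts was not tested.

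The shared replicate numbers were checked as pairs. Deviations of same-numbered arrays correlated at -0.04, 0.04 and 0.16, and those of differently numbered arrays at -0.12 to 0.11. So few arrays cannot decide whether same-numbered samples share an animal. No label used here states that they do, so the main fit does not pair them. With the replicate block, 100 genes changed (46 higher, 54 lower). Tumour 4 has no same-numbered surrounding liver, so the block leaves it without weight in the difference: for all 80 genes the difference with the block equalled that without tumour 4. This includes the changed signs of Ms4a8a (-0.0109), Nlrp12 (-0.0473) and Serpina1e (0.28), which are therefore those of leaving out tumour 4.

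Among 80 genes, 11 changed sign in an alternative, none of which had passed within the Mst1/2 line. Median scaling gave Hs3st3a1 0.0895, Smc1b 0.0437 and Stk4 0.0442, and array weights gave Stk4 0.0193. With 1 array left out, differences ran from -0.39 to 0.79 for Axin2, -1.50 to 0.12 for Ctsc, -1.85 to 0.36 for Cyp2a4, -0.73 to 0.80 for Glul, -0.14 to 0.0732 for Hs3st3a1, -0.079 to 0.35 for Ms4a8a, -0.0473 to 0.35 for Nlrp12, -2.80 to 0.28 for Serpina1e, -0.61 to 1.48 for Slc1a2, -0.0958 to 0.0757 for Smc1b and -0.0769 to 0.0504 for Stk4. Of the list medians recomputed, 1033 moved by less than the spread between replicates and 47 by more. Dim genes such as Scnn1b and 2210407C18Rik lie close to background, which limits what their folds can show.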
